A study of Mus musculus with 8 samples.

Results

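The Polycomb repressive complex genes described here are 10 genes of the 23361 gene symbols in the deposited expression table, chosen by name as subunits of the mouse Polycomb complexes. Ezh2, Ezh1, Suz12, Eed and Jarid2 belong to Polycomb repressive complex 2 (PRC2), and Ring1, Rnf2, Bmi1, Cbx7 and Phc1 belong to Polycomb repressive complex 1 (PRC1). All 10 were found under these symbols and all 10 passed the filter for testing, a mean of at least 1 FPKM (sequenced fragments scaled to transcript length and to library size) over the libraries, as did 10467 genes in all.

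The study compared regulatory T cells induced in culture (iTreg) that carry Neuropilin-1 (Nrp-1), a cell surface receptor, with those that do not. Naive CD4+ T cells of WT genotype from B6 Foxp3-RFP reporter mice (C57BL/6 background), in which red fluorescence marks cells expressing the Treg factor Foxp3, were given anti-CD3/CD28 microbeads, IL-2 (50 U/ml per the labels) and TGF-β (2 ng/ml), and both groups received the same treatment. Viable CD4+ Foxp3-RFP+ cells were then sorted into Nrp-1+ iTreg (4 libraries) and Nrp-1- iTreg (4 libraries), labelled as biological replicates 1 to 4 of each group. The labels give 3 days of culture in one field and Day 5 in another, and the labels do not give the age of the mice, which the methods give only for the study's mice in general. Nothing in the sources used here says whether the replicates came from separate mice or cultures, so p-values measure the spread between these libraries, which may be technical. Nrp1 itself was 21.5 ± 0.709 FPKM (SD, n = 4) in the Nrp-1+ libraries and 4.95 ± 0.262 FPKM (SD, n = 4) in the Nrp-1- libraries, in the direction of the labels.

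Polycomb proteins keep genes silent through marks on histones. PRC2 methylates histone H3 at lysine 27 through Ezh1 or Ezh2, which need Suz12 and Eed to be active, and PRC1 ubiquitinates histone H2A through Ring1 or Rnf2 and binds the methyl mark through its Cbx subunits. In T cells Ezh2 is induced on activation, and in Treg it is known for keeping the Foxp3-dependent programme in place after activation, while Ezh1 is typically the enzyme of resting cells.

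Promoter sequences are shown for the genes with the largest log2 fold changes in either direction. These are Ezh2, Suz12 and Ezh1 among the members and Phf19 and Phf1 among the accessory PRC2 genes described further on. Each runs 5′ to 3′ along the gene's own strand from 250 bases before to 50 bases after the start, in RefSeq on GRCm38.p6. Capitals mark a match to one of 4 forms of the E2F motif (TTTGGCGC, TTTCCCGC, TTTCGCGC and TTTGCCGC, searched on both strands), the motif of the E2F factors known for cell cycle genes. The windows are chr6:47594981-47595280 on the minus strand for Ezh2, chr11:79992856-79993155 on the plus strand for Suz12 and chr11:101226414-101226713 on the minus strand for Ezh1. Those of Phf19 and Phf1 are chr2:34913927-34914226 on the minus strand and chr17:26932877-26933176 on the plus strand.
Ezh2: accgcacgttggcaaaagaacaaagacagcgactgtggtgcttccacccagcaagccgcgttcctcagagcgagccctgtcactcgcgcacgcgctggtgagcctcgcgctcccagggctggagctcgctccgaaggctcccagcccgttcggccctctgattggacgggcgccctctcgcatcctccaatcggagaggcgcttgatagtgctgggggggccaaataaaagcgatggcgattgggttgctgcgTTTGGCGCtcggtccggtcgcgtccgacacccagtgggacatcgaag
Suz12: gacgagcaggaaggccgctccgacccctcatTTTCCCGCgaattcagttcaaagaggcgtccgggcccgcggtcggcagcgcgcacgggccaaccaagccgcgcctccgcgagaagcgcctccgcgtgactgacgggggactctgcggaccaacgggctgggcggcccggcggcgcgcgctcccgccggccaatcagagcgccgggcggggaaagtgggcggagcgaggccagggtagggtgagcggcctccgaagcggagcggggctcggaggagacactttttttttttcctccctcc
Ezh1: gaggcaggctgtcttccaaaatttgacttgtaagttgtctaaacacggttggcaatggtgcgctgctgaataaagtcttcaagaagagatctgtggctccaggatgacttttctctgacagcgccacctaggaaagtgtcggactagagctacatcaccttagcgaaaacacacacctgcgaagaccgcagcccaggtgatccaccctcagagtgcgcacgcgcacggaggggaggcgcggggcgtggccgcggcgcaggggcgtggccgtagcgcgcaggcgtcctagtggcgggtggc
Phf19: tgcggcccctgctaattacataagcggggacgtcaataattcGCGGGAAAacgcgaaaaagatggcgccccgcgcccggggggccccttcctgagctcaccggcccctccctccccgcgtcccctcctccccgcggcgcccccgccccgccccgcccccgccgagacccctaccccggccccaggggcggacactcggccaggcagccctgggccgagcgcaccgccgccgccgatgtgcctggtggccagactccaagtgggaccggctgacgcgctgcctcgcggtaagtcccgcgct
Phf1: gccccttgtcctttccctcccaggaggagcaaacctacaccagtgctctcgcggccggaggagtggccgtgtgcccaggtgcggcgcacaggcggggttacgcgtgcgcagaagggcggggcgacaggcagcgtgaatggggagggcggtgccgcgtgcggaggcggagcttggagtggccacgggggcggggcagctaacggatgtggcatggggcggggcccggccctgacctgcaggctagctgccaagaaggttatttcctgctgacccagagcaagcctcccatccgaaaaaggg

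An E2F match was found in 2 of the 10 members, Ezh2 and Suz12. The Ezh2 match, TTTGGCGC, began 3 bases downstream of the start site, and the Suz12 match, TTTCCCGC, began 219 bases upstream of it. In Phf19 the match lay on the opposite strand, 208 bases upstream. None of the 4 forms was in the windows of the other 8 members, or in those of Rbbp4, Rbbp7, Mtf2 and Phf1. At least 1 form was present in 2.26% of all 32817 promoters in the table and in 4.37% of the 9767 promoters of tested genes. The 5 bases CCAAT, on either strand, occurred 3 times in the Ezh2 window and not in that of Ezh1, beside 37.4% of all promoters with at least 1 copy. Copies were also found for Suz12, Eed, Jarid2 and Cbx7, and not for Bmi1, Ring1, Rnf2 and Phc1. Among the accessory genes Rbbp4, Rbbp7 and a window of Mtf2 held copies, and Phf19 and Phf1 did not. No CCAAT copy overlapped an E2F match in these windows. These matches describe the letters of the windows, and no binding was measured.

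Of the 10 members, 2 were higher and 2 lower in Nrp-1+ iTreg at an adjusted p under 0.05 (limma on log2(FPKM + 1), adjusted over all 10467 genes tested), and 6 did not pass. Over all tested genes 40.9% were called, 20.9% higher and 20% lower, so the members' share of 4 in 10 was close to that of the whole table. The groups did not overlap for the same 4 members, beside 39.5% of all tested genes. The members' median log2 fold change was -0.00034, beside -0.016 over all tested genes. By complex, 3 of 5 PRC2 genes and 1 of 5 PRC1 genes were called. In these bulk libraries, fewer cells with a transcript and less of it per cell cannot be told apart.

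Ezh2, the main methyltransferase of dividing cells, was the member that differed most. It measured 104.6, 104.1, 105.5 and 99.1 FPKM in Nrp-1+ iTreg replicates 1 to 4 and 63.6, 63.1, 66.2 and 65.1 FPKM in the Nrp-1- libraries in the same order. All 4 Nrp-1+ libraries lay above all 4 Nrp-1- libraries, and the gap was many times the spread within either group. The means were 103.3 ± 2.88 and 64.5 ± 1.41 FPKM (SD, n = 4 each), a ratio of 1.60 and a log2 fold change of 0.67 ± 0.027 (SE; adjusted p = 5.9e-07). By the size of its log2 fold change Ezh2 was 341st among the 4282 called genes, and 394 tested genes had a larger increase. An annotated long noncoding RNA, F830010H11Rik, overlaps the Ezh2 locus and could not be read apart from it here.

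Ezh1, the other methyltransferase, changed in the opposite direction. It measured 20.1, 19.6, 21.0 and 21.3 FPKM in the Nrp-1+ libraries and 24.6, 24.0, 24.6 and 23.8 FPKM in the Nrp-1- libraries, again without overlap. Its log2 fold change was -0.23 ± 0.030 (SE; adjusted p = 0.000496), a smaller difference than that of Ezh2. Ezh1 made up 16.1%, 15.9%, 16.6% and 17.7% of the summed Ezh1 and Ezh2 FPKM in the Nrp-1+ libraries and 27.9%, 27.6%, 27.1% and 26.8% in the Nrp-1- libraries. FPKM is a level per transcript length, and on that scale there were 5.05 ± 0.287 Ezh2 per Ezh1 in the Nrp-1+ libraries and 2.66 ± 0.0649 in the Nrp-1- libraries (SD, n = 4 each). The sum of both genes was 123.8 ± 2.57 FPKM in the Nrp-1+ libraries and 88.8 ± 1.55 FPKM in the Nrp-1- libraries (SD, n = 4 each), with Ezh2 higher and Ezh1 lower in the first.

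**Figure D1:**
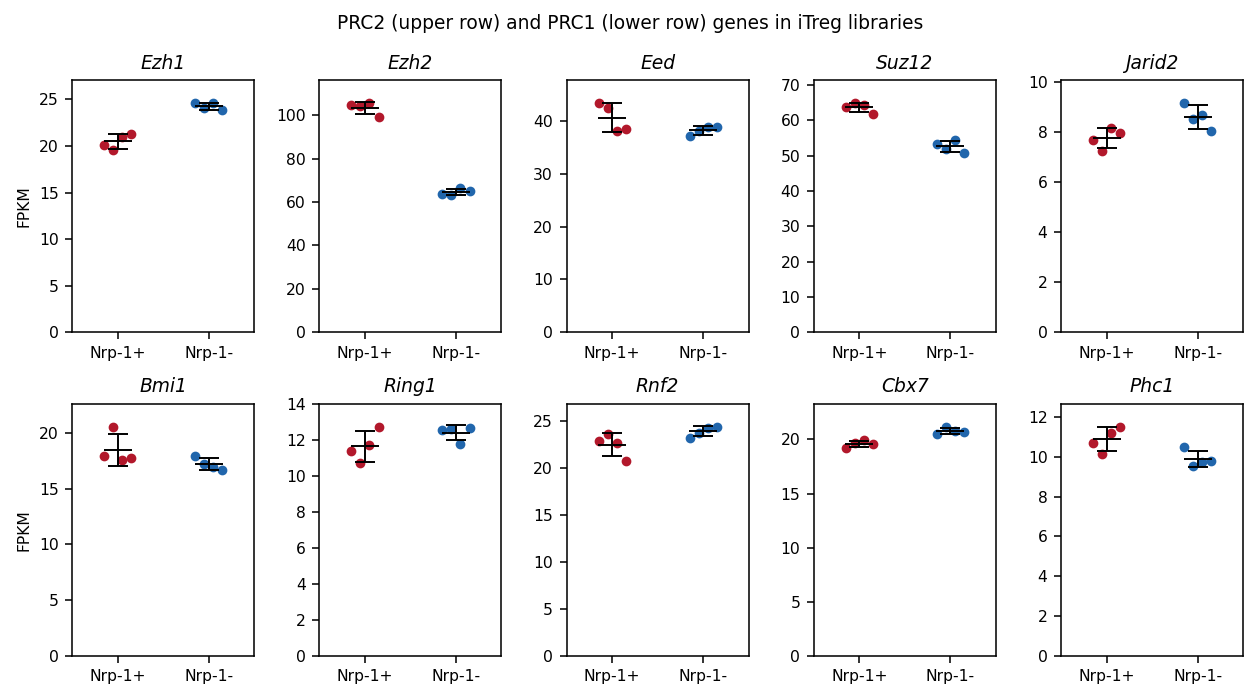
FPKM (vertical axes, each starting at 0) of the 10 members in 4 Nrp-1+ iTreg libraries (red) and 4 Nrp-1- iTreg libraries (blue), with bars for the mean and SD. Ezh2 and Suz12 are higher and Ezh1 and Cbx7 lower in Nrp-1+ iTreg with no overlap, while the points of the other 6 overlap.

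Suz12, which holds PRC2 together, was also higher in Nrp-1+ iTreg. It measured 63.9, 64.8, 64.2 and 61.8 FPKM there and 53.2, 51.8, 54.4 and 50.8 FPKM in the Nrp-1- libraries. The groups did not overlap, and the log2 fold change was 0.27 ± 0.027 (SE; adjusted p = 0.000108). Eed, the subunit that binds the methyl mark, measured 43.4, 42.5, 38.1 and 38.5 FPKM in the Nrp-1+ libraries and 37.1, 38.1, 38.9 and 38.9 FPKM in the Nrp-1- libraries. Replicates 1 and 2 of Nrp-1+ iTreg lay above the rest, replicates 3 and 4 lay among the Nrp-1- libraries, and Eed did not pass (log2 fold change 0.08, 95% interval -0.023 to 0.19, adjusted p = 0.189). The core genes therefore did not keep 1 proportion between the groups. Ezh2 was 1.62 ± 0.0209 times Suz12 in the Nrp-1+ libraries and 1.23 ± 0.0361 times in the Nrp-1- libraries (SD, n = 4 each), and 2.55 ± 0.164 times Eed against 1.69 ± 0.0270 times.

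Jarid2, a DNA-binding accessory subunit that helps recruit PRC2, was the lowest of the 10 in both groups. It measured 7.66, 7.23, 8.16 and 7.95 FPKM in the Nrp-1+ libraries and 9.15, 8.53, 8.69 and 8.02 FPKM in the Nrp-1- libraries, with only the lowest Nrp-1- library inside the Nrp-1+ range. The log2 fold change of -0.13 (95% interval -0.24 to -0.024) did not pass at an adjusted p of 0.0544. It passed without Nrp-1+ iTreg replicate 3 (-0.16, adjusted p = 0.0494) and without Nrp-1- iTreg replicate 4 (-0.16, adjusted p = 0.0319).

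Among 8 further PRC2 genes 7 were tested, of which 5 were higher, 1 was lower and 1 (Aebp2) did not pass, with a median log2 fold change of 0.16, beside 20.9% higher and 20% lower over all tested genes. Ezhip, an inhibitor of PRC2, was listed at 0 in all libraries. The widest differences were in the Polycomb-like genes, alternative subunits that bring PRC2 to CpG islands. Phf19 measured 9.28, 9.21, 7.75 and 9.52 FPKM in the Nrp-1+ libraries and 5.24, 5.85, 5.46 and 5.04 FPKM in the Nrp-1- libraries (log2 fold change 0.63 ± 0.066, SE; adjusted p = 0.000153). Phf1 went the other way, with 14.9, 13.7, 13.4 and 14.8 FPKM against 19.8, 21.2, 21.3 and 20.2 FPKM (log2 fold change -0.51 ± 0.042, SE; adjusted p = 4.03e-05). Neither gene's groups overlapped. Mtf2, the third of these genes, had a log2 fold change of 0.14 (adjusted p = 0.0309), which no longer passed without Nrp-1+ iTreg replicate 2 or without any single Nrp-1- library (adjusted p from 0.0536 to 0.0766). The Mtf2 call was also lost with the GC and length correction (0.10, adjusted p = 0.0840), quantile normalization (adjusted p = 0.0848) and no filter (adjusted p = 0.0512).

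Of the summed FPKM of Phf1, Mtf2 and Phf19, Phf1 held 39.8% ± 1.07 in the Nrp-1+ libraries and 55.3% ± 0.902 in the Nrp-1- libraries, and Phf19 held 25.0% ± 1.35 and 14.5% ± 0.589 (SD, n = 4 each). Phf1 was the most abundant of the 3 in every library, as the plot of PRC2 composition shows. Rbbp7 and Rbbp4, histone-binding subunits that PRC2 shares with other chromatin complexes, had log2 fold changes of 0.43 (adjusted p = 7.78e-06) and 0.29 (adjusted p = 5.77e-05). Epop, a PRC2 cofactor listed under an older symbol, had a log2 fold change of 0.16 with overlapping groups (adjusted p = 0.0326). Its call was lost without Nrp-1+ iTreg replicate 3 or 4 and without Nrp-1- iTreg replicate 1, 2 or 4 (adjusted p from 0.0783 to 0.0851), and also with no filter (adjusted p = 0.0544) and quantile normalization (adjusted p = 0.0802).

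**Figure D2:**
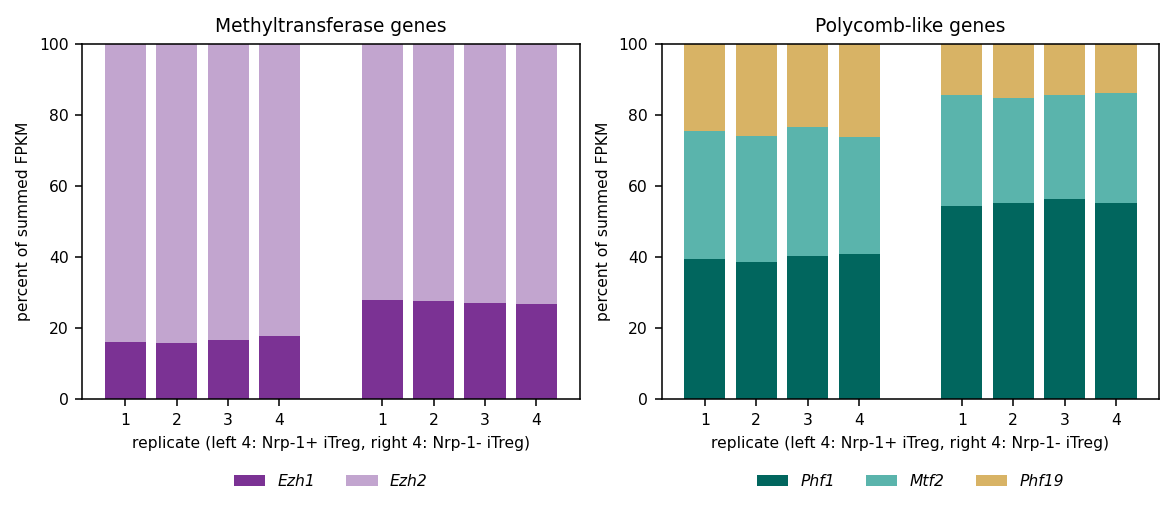
Share of each gene (vertical axes, percent) in the summed FPKM of Ezh1 and Ezh2 (left) and of the Polycomb-like genes Phf1, Mtf2 and Phf19 (right), with 1 bar per library. Ezh1 takes 15.9% to 17.7% in the Nrp-1+ libraries and 26.8% to 27.9% in the Nrp-1- libraries, and Phf1 takes 38.6% to 41.0% and 54.3% to 56.5%.

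Among the 5 PRC1 members, Cbx7, which reads the methyl mark, was the only one to pass. It measured 19.2, 19.7, 19.9 and 19.5 FPKM in the Nrp-1+ libraries and 20.5, 21.2, 20.8 and 20.7 FPKM in the Nrp-1- libraries. The groups did not overlap although the log2 fold change was only -0.08 ± 0.021 (SE; adjusted p = 0.0151), which placed Cbx7 4222nd of the 4282 called genes by size. The annotated Cbx7 locus overlaps that of Apobec3, whose reads are uncertain to separate where the strand was not used in counting. Apobec3 was at 125.2 ± 0.869 FPKM in the Nrp-1+ libraries and 119.6 ± 1.46 FPKM in the Nrp-1- libraries (SD, n = 4 each), the opposite direction.

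Phc1, a polyhomeotic subunit that links PRC1 particles, measured 10.7, 10.2, 11.2 and 11.5 FPKM in the Nrp-1+ libraries and 10.5, 9.53, 9.75 and 9.79 FPKM in the Nrp-1- libraries. The 2 groups overlapped through Nrp-1+ replicate 2 and Nrp-1- replicate 1, and the log2 fold change of 0.13 (95% interval 0.024 to 0.23) did not pass at an adjusted p of 0.0514. It passed without either of these libraries (0.16, adjusted p = 0.0252, and 0.15, adjusted p = 0.0339).

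The ubiquitin ligases Ring1 and Rnf2 were not called. Rnf2, the more abundant of the pair, measured 22.9, 23.7, 22.7 and 20.8 FPKM in the Nrp-1+ libraries and 23.3, 23.8, 24.3 and 24.5 FPKM in the Nrp-1- libraries (log2 fold change -0.09, 95% interval -0.18 to 0.0038, adjusted p = 0.115). Ring1 measured 11.4, 10.7, 11.7 and 12.7 FPKM against 12.5, 12.6, 11.8 and 12.7 FPKM (-0.09, 95% interval -0.20 to 0.029, adjusted p = 0.206), and it passed without Nrp-1+ iTreg replicate 4 (-0.13, adjusted p = 0.0470). Rnf2 was 1.95 ± 0.241 times Ring1 in the Nrp-1+ libraries and 1.93 ± 0.0902 times in the Nrp-1- libraries (SD, n = 4 each), with overlapping ranges. Bmi1, a ligase partner known for repressing the cell cycle inhibitor Cdkn2a, measured 18.0, 20.6, 17.6 and 17.7 FPKM against 18.0, 17.2, 17.0 and 16.7 FPKM. Nrp-1+ replicate 2 stood above all other libraries, and Bmi1 did not pass (0.09, 95% interval -0.024 to 0.21, adjusted p = 0.179). Without that library its log2 fold change was 0.04.

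Of 20 other PRC1 genes 18 were tested, of which 6 were higher, 1 was lower and 11 did not pass, with a median log2 fold change of 0.07. The 7 called were 38.9% of those tested, near the 40.9% of the whole table. Scml2 and Auts2 were under the filter. The 3 largest increases among the called genes were in Cbx2 (0.28, adjusted p = 0.0137) and Cbx6 (0.24, adjusted p = 0.00112), both chromodomain subunits like Cbx7, and in Kdm2b (0.17, adjusted p = 0.0131), which recruits PRC1 to CpG islands. The decrease was in Pcgf1, the Bmi1 relative that works with Kdm2b (-0.35, adjusted p = 0.00545). Taking the other PRC2 and PRC1 genes together, 11 of 25 tested were higher and 2 lower, beside 20.9% and 20% of all tested genes, and the count of higher genes was 7 without Nrp-1- iTreg replicate 4. The plot of Polycomb changes shows that the largest differences in either direction were among PRC2 genes.

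**Figure D3:**
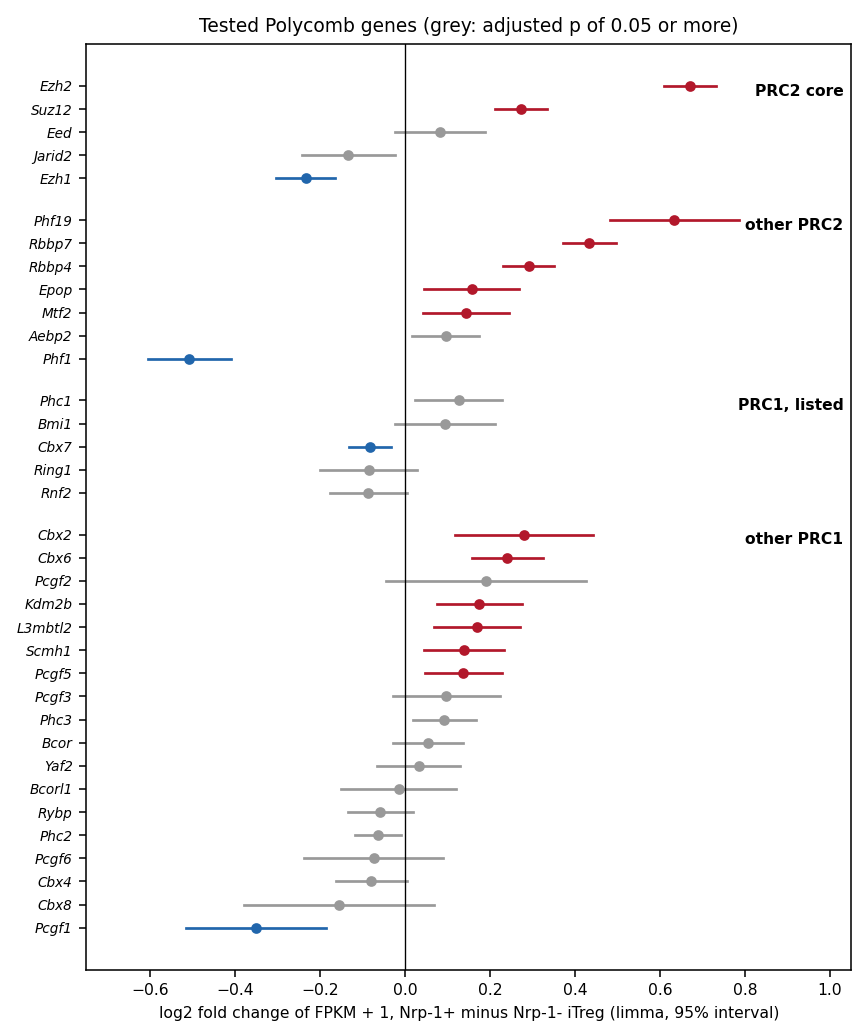
Log2 fold change of FPKM + 1 (horizontal axis, Nrp-1+ minus Nrp-1- iTreg, 4 libraries each) with its 95% limma interval for the tested Polycomb genes, one per line. Red genes were called higher, blue lower, and grey not called; Ezh2 (0.67) and Phf19 (0.63) lie farthest to the right and Phf1 (-0.51) farthest to the left.

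The members were in nearly the same order of level in both groups. Ezh2, Suz12 and Eed were the highest, in that order and with separate ranges, and Jarid2 was the lowest. In Nrp-1- iTreg Ezh1 (24.3 FPKM) came next below Eed, with a range overlapping that of Rnf2 (24.0 FPKM). In Nrp-1+ iTreg Rnf2 (22.5 FPKM) stood above Ezh1 (20.5 FPKM), Cbx7 (19.6 FPKM) and Bmi1 (18.5 FPKM), and each of these overlapped the next. Ring1 and Phc1 overlapped in Nrp-1+ iTreg and were separate in Nrp-1- iTreg.

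Of 6 tested genes that remove Polycomb marks, 3 were lower and 1 was higher in Nrp-1+ iTreg, beside 20% and 20.9% of all tested genes. Kdm6b, a demethylase of the PRC2 mark, measured 11.7, 11.6, 12.0 and 11.8 FPKM in the Nrp-1+ libraries and 16.1, 15.5, 14.6 and 15.1 FPKM in the Nrp-1- libraries. The groups were separate, with a log2 fold change of -0.35 ± 0.032 (SE; adjusted p = 6.51e-05). Usp16, which removes ubiquitin from H2A, fell by 0.20 (adjusted p = 0.00398), and Asxl1, a partner of the H2A deubiquitinase Bap1, rose by 0.15 (adjusted p = 0.000819). Kdm6a, the related demethylase, had a log2 fold change of -0.12 with overlapping groups (adjusted p = 0.0441). Its call was lost without Nrp-1+ iTreg replicate 1, 3 or 4 and without Nrp-1- iTreg replicate 1, 2 or 4 (adjusted p from 0.0696 to 0.108). The Kdm6a call was also lost with no filter (adjusted p = 0.0675) and untrended eBayes (adjusted p = 0.0505).

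Trithorax and COMPASS genes, whose histone methyltransferases act opposite to Polycomb, gave 3 higher and 4 lower genes of 14 tested. The 50% called compares with 40.9% of all tested genes. The higher genes were the cofactors Paxip1 (0.40, adjusted p = 0.000237), Dpy30 (0.26, adjusted p = 0.0102) and Ash2l (0.12, adjusted p = 0.00138). The lower ones were the methyltransferases Kmt2c (-0.24, adjusted p = 0.00304), Kmt2a (-0.22, adjusted p = 0.00161), Kmt2b (-0.16, adjusted p = 0.00507) and Ash1l (-0.14, adjusted p = 0.0192). Ash1l no longer passed without Nrp-1+ iTreg replicate 3 (adjusted p = 0.0513).

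Of 10 listed genes linked to Ezh2 in T cells, 4 passed the filter. Cdkn2a, a cell cycle inhibitor locus that Polycomb is known to silence, was low but higher in Nrp-1+ iTreg, at 1.07, 1.73, 1.87 and 1.15 FPKM against 0.731, 0.512, 0.496 and 0.767 FPKM (0.58, adjusted p = 0.00809). Prdm1, the gene of the effector factor Blimp-1, was lower, at 2.11, 1.79, 2.15 and 1.88 FPKM against 2.97, 2.52, 2.53 and 2.56 FPKM (-0.29, adjusted p = 0.00859). Both pairs of groups were separate. Cdkn2a reached the mean of 1 FPKM for testing only through the Nrp-1+ libraries (means of 1.46 and 0.626 FPKM), so its place among the genes tested depended on the difference itself. At this low level the log2 fold change of Cdkn2a was 1.08 with a pseudocount of 0.1. Gata3, the Th2 factor, was at 49.2 ± 1.07 and 48.0 ± 2.58 FPKM and Tbx21, the Th1 factor, at 1.20 ± 0.132 and 1.01 ± 0.137 FPKM (SD, n = 4 each), and neither passed. Eomes, Ifng, Il4, Il13, Il10 and Cdkn2b were under the filter. Of these, Il4 was at 0 in every Nrp-1+ library and at 0.121 to 0.448 FPKM in the Nrp-1- libraries, a level near the floor. The groups of the others were not separate.

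Proliferation genes moved in the same direction as Ezh2. All 15 of the listed genes were called higher in Nrp-1+ iTreg, beside 20.9% of all tested genes. The 15 log2 fold changes ran from 0.70 to 1.00 with a median of 0.91, among them those of Mki67 (0.82) and Top2a (1.00). The summed level of the list was 2136 to 2201 FPKM in the Nrp-1+ libraries and 1181 to 1202 FPKM in the Nrp-1- libraries. Ezh2, which is not part of that sum, had a level equal to 4.74% ± 0.0807 of it in the Nrp-1+ libraries and 5.41% ± 0.104 in the Nrp-1- libraries (SD, n = 4 each), a lower ratio in Nrp-1+ iTreg without overlap. Against Mki67 alone, Ezh2 was 1.21 to 1.39 times as high in the Nrp-1+ libraries and 1.32 to 1.47 times in the Nrp-1- libraries, with overlap. The part of proliferation in the differences of Ezh2, Suz12 and Phf19 was not tested.

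**Figure D4:**
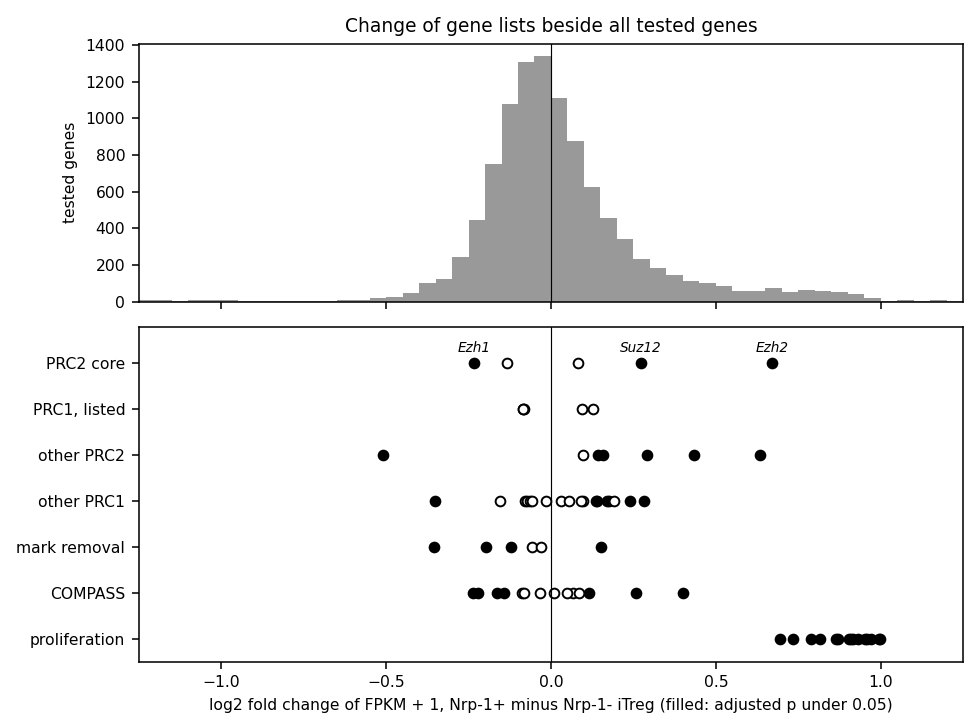
Upper panel, number of tested genes by log2 fold change of FPKM + 1 (Nrp-1+ minus Nrp-1- iTreg, genes beyond the axis not drawn). Lower panel, the genes of each list on the same axis, filled where the adjusted p was under 0.05; Ezh2 (0.67) lies just below the proliferation genes (0.70 to 1.00).

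The genes whose profile over the 8 libraries lay nearest to that of Ezh2, among 7913 candidates, were Pcna, Nucks1, Anp32e, H2afz and Gpsm2. Their root mean square difference from Ezh2 on the centred log2 scale was 0.017 for Pcna, the replication clamp, and up to 0.031 for Gpsm2. The genes nearest to Ezh1 were Maf1 (0.019), Mllt6, Rab43, Cnppd1 and Sigirr (0.025). H2afz, a histone variant gene with near-identical copies in the genome, is uncertain at the level of single genes. Likeness was read over 8 libraries in 2 groups and is a description.

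**Figure D5:**
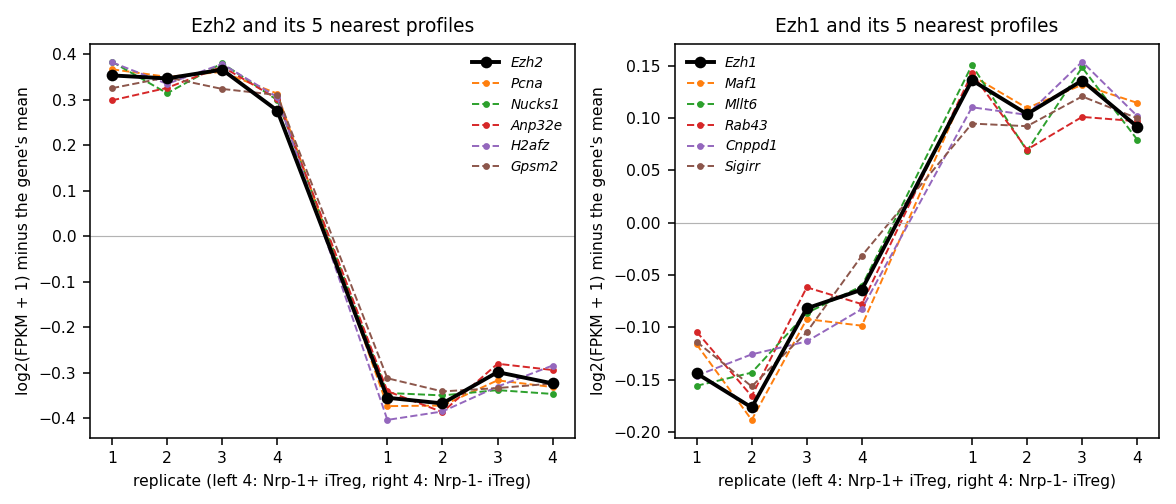
Log2(FPKM + 1) minus each gene's mean (vertical axis) in the 4 Nrp-1+ and 4 Nrp-1- iTreg libraries (horizontal axis) for Ezh2 (left) and Ezh1 (right), in black, with the 5 nearest genes of each. The 5 genes beside Ezh2 are high in every Nrp-1+ library, and the 5 beside Ezh1 are high in every Nrp-1- library.

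The libraries matched their labelled cell type. CD4 T cell and Treg markers summed to 1438 to 1488 FPKM in the Nrp-1+ libraries and 1417 to 1456 FPKM in the Nrp-1- libraries, with Foxp3 (0.09), Il2ra (0.22) and Ikzf4 (0.18) higher and Ctla4 (-0.16) lower among the 7 markers. B cell markers summed to at most 0.867 FPKM and NK markers to at most 0.142 FPKM, with Ms4a1 at 0 throughout. Cd8a was at most 0.111 FPKM. Cd8b1 was not near 0 and was lower in Nrp-1+ iTreg (-0.31), at 7.07 to 8.77 against 9.28 to 11.3 FPKM. Of the 5 myeloid markers only Itgam was tested (0.23, higher), with sums of 6.65 to 7.32 against 5.46 to 6.21 FPKM. Of the 2 erythroid markers Hba-a1, which has a near-identical copy, was higher in Nrp-1+ iTreg at 5.48 to 7.53 against 2.01 to 3.25 FPKM, and Hbb-b1 was near 0 in 7 libraries. The part of other cells in the members' differences was not tested. Depth was about 15300000 to 23200000 fragments per library, approximated from low values and transcript lengths, which gives at least about 462 fragments for any member in any library and a sampling coefficient of variation of at most 4.65%. Short RNA genes took 1.77% to 43.9% of the summed FPKM, with wide ranges in both groups, and the 4 called members were also called with those genes left out.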

How the data were processed

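RNA sequencing libraries of 4 Nrp-1+ iTreg and 4 Nrp-1- iTreg samples were compared, grouped by the sample labels. Reads went through the CLC Genomics Workbench and Cufflinks, and the authors deposited FPKM, with 1 row per gene symbol and 1 column per library. The submitters' processing notes name GRCm38 and mm10. The paper's methods name a directional library kit with polyA selection and the labels another kit, and whether counting used strand is not given in the sources used here. FPKM are not counts, so no count model was used. FPKM were used as deposited, and genes with a mean of at least 1 FPKM entered limma 3.58.1 (R 4.3.3) as log2(FPKM + 1), using lmFit, trended eBayes and a Benjamini-Hochberg correction over all 10467 of them. Fold changes on this scale understate those of low genes. A gene was called at an adjusted p under 0.05, at any fold.

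The members and gene lists were chosen with earlier results of these data known. Named were all members, up to 3 called genes with the largest increase and decrease in each related list (all of them where 5 or fewer were called in a direction), the nearest profiles of Ezh2 and Ezh1 (genes with a mean of at least 5 FPKM, without short RNA genes and members), Nrp1, Mki67, Top2a and marker genes. Kmt2d was left out because its older symbol is ambiguous in the table. The nearest profiles and ratios carry no test. Results were recomputed under 20 alternatives: no filter or one at a mean of 5 FPKM, pseudocounts of 0.1 and 0.5, quantile normalization or median-of-ratios scaling, untrended eBayes, array weights, the replicate block, a GC and length correction (splines with 5 degrees of freedom, GENCODE M21 transcripts) without and with the block, leaving out short RNA genes, and leaving out each library in turn. The fit code was run on simulated data with independent noise and few changed genes, a simpler setting than these libraries, so that run does not bear on the calls. All 10 members matched the RefSeq promoter table. No 2 libraries shared more than 0.0096% of tested genes at the same nonzero value. Other steps ran in Python 3.11.15 (pandas 2.3.3, matplotlib 3.10.9). The nTreg libraries were not analysed here.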

Additional observations from a re-analysis of the deposited data

Results flagged for a closer look

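A library was marked where its gap to the nearest of the other 3 in its group exceeded Dixon's 95% limit for 4 samples, taken as a share of the group's range. Of 92 groups searched, 7 were marked and about 4.6 would be by chance, at 1 in 20. Among the members, Bmi1 was 20.6 FPKM in Nrp-1+ iTreg replicate 2 against 17.6 to 18.0 FPKM in the other 3 libraries, and Ring1 was 11.8 FPKM in Nrp-1- iTreg replicate 3 against 12.5 to 12.7 FPKM. Among PRC2 cofactors, Rbbp4 was 81.9 FPKM in Nrp-1+ iTreg replicate 3 against 77.5 to 78.2 FPKM, and Epop was 12.8 FPKM in Nrp-1- iTreg replicate 3 against 11.4 to 11.5 FPKM. Dpy30 was 62.5 FPKM in Nrp-1- iTreg replicate 4 against 55.0 to 56.2 FPKM, and Prdm1 was 2.97 FPKM in Nrp-1- iTreg replicate 1 against 2.52 to 2.56 FPKM. Cnppd1 was 60.3 FPKM in Nrp-1- iTreg replicate 3 against 58.1 to 58.5 FPKM.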

How the results depend on the processing

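Ezh2, Suz12, Ezh1 and Cbx7 kept their direction and stayed called under all 20 alternatives, with log2 fold changes from 0.63 to 0.69, 0.23 to 0.29, -0.26 to -0.21 and -0.11 to -0.07, and no member changed direction. Some calls were gained. With the GC and length correction, 4 members were lower in place of 2, since Jarid2 (-0.14, adjusted p = 0.0343) and Rnf2 (-0.13, adjusted p = 0.00692) passed. Under this correction 40.0% of all called genes were higher, against 51.1% without it. Jarid2 also passed under quantile normalization (-0.17, adjusted p = 0.0244), which left 7 other Polycomb genes called higher in place of 11. Phc1 passed with a pseudocount of 0.1 (0.14), a filter at 5 FPKM (0.13), array weights (0.13) and without short RNA genes (0.13), at adjusted p from 0.0459 to 0.0496. Leaving out 1 library at a time gave log2 fold changes from -0.16 to -0.10 for Jarid2, -0.13 to -0.049 for Ring1 and 0.10 to 0.16 for Phc1, and 7 to 10 other Polycomb genes called higher. Eed, not called throughout, was 0.05 without Nrp-1+ iTreg replicate 1 and 0.04 with the GC and length correction, Bmi1, also not called throughout, was 0.05 with that correction, and Rnf2 was -0.05 without Nrp-1+ iTreg replicate 4. The causes were not tested.

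Equal replicate numbers gave deviations that correlated at -0.54 to 0.010, and no library correlated best with its own number, so the numbers were not treated as pairs. With the replicate block the 4 called members stayed called, at log2 fold changes of 0.67, 0.27, -0.23 and -0.08, and 1931 genes were called higher and 1675 lower. With the GC and length correction and the replicate block, Rnf2 passed (-0.13, adjusted p = 0.0371), while Ash2l (0.07, adjusted p = 0.0914) and Cdkn2a (0.58, adjusted p = 0.0551) did not. Kdm6a did not pass with the replicate block alone (adjusted p = 0.0726). Of 36 other named genes recomputed, which did not include the cell type markers, 30 kept call and direction under every alternative run, the others being Mtf2, Epop, Kdm6a, Ash1l, Ash2l and Cdkn2a. FPKM do not carry the number of fragments behind a value, so counting error for single genes is approximate.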
